A study of Ursus arctos with 12 samples.

Results

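The genes described here belong to the uptake and use of ketone bodies, in biopsies of the vastus lateralis of brown bears during hibernation and during the active period. The set was named as 6 genes, OXCT1, BDH1, BDH2, ACAT1, AACS and SLC16A1, and it was chosen on winter and summer results of these same counts that were already known, so the seasonal difference of each of these genes is given as a description. Where their number past a threshold is given, it describes the set in the same way and is not a test of it. Of the 30249 genes in the count table, 4 carried one of these symbols (OXCT1, BDH1, ACAT1 and AACS). BDH2 was found under its number, LOC113263090, through the RefSeq gene ID, and SLC16A1, the transporter MCT1, was not analysed here. The 5 genes found were all among the 17290 genes that had at least 30 reads over the 12 libraries.

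Muscle biopsies came from 6 free-ranging brown bears (Ursus arctos), 2 to 3 years old, each sampled in winter, when the animals were hibernating without food, and in summer, when they were active. The seasons are the only groups, with 6 libraries each. The same animals gave both, and no animal carried a treatment or an altered gene. Polyadenylated RNA was sequenced with the strand kept, and reads per gene were counted. A bear also stands for its place and year of capture, which cannot be told apart from the animal.

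Ketone bodies, acetoacetate and 3-hydroxybutyrate, are made from fatty acids in liver mitochondria during fasting and are carried in the blood to muscle, heart and brain. There, monocarboxylate transporters let them in and BDH1 oxidises 3-hydroxybutyrate to acetoacetate in the mitochondrion. OXCT1 (SCOT) then moves a CoA from succinyl-CoA onto acetoacetate, the step that the liver lacks and that commits the ketone body to oxidation. ACAT1 splits the resulting acetoacetyl-CoA into acetyl-CoA for the citric acid cycle. AACS works in the cytosol, where it activates acetoacetate for the synthesis of lipids and sterols.

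Depth ran from 20191068 to 27283155 counted reads in summer and from 16742406 to 32140160 in winter. The labelled tissue was checked on muscle markers, of which 9 of 10 were found and tested. Their summed level was 128726 to 194320 CPM in summer and 125666 to 169317 CPM in winter, where CPM, the level used throughout, is the read count relative to the library total as scaled by edgeR's TMM factors. At an adjusted p below 0.05 in edgeR, 3 of these 9 markers were lower in winter, 2 were higher and 4 were neither. The similar sums therefore do not mean that each marker was stable. Libraries of bulk tissue cannot tell fewer cells of a type from less RNA per cell. Of the marker lists, that of fibroblasts had the lowest median difference (−2.13 on the log2 scale), with 6 of 7 lower in winter and summed levels of 4213 to 11323 CPM in summer and 274 to 1649 CPM in winter. Of the tested markers of other cells, 4 of 7 endothelial, 4 of 6 macrophage and leukocyte, 3 of 5 smooth muscle and 1 of 2 red blood cell genes were lower, and 1 endothelial gene was higher. The red blood cell gene, EPB42, had a winter median of 0 CPM, and the leukocyte gene CD3E a winter mean of 0.197 CPM. Little is to be read from the calls of EPB42 and CD3E. Of the fast fibre list 2 of 8 were lower, where 21.2% of all genes tested were lower and 19.6% higher. The part of these cells in the values that follow was not tested.

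OXCT1 was lower in winter by 17.6-fold, the widest gap of the 5 genes. ACAT1, the enzyme after it, was lower by 1.80-fold. For these 2 genes every winter library was below every summer library, as it was for 8.21% of all genes tested. BDH1, with few reads, was lower by 4.01-fold and AACS by 1.41-fold, both with overlapping seasons. BDH2 differed by 1.12-fold in the other direction. At an adjusted p below 0.05 in edgeR's quasi-likelihood test with the bear as a block, 4 of the 5 genes lay past the threshold on the lower side and none on the higher side, as also in DESeq2 and limma voom. Over all genes tested, 21.2% were past it on the lower side and 19.6% on the higher side. Since the genes were chosen on this contrast, nothing is read from that count.

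**Figure D1:**
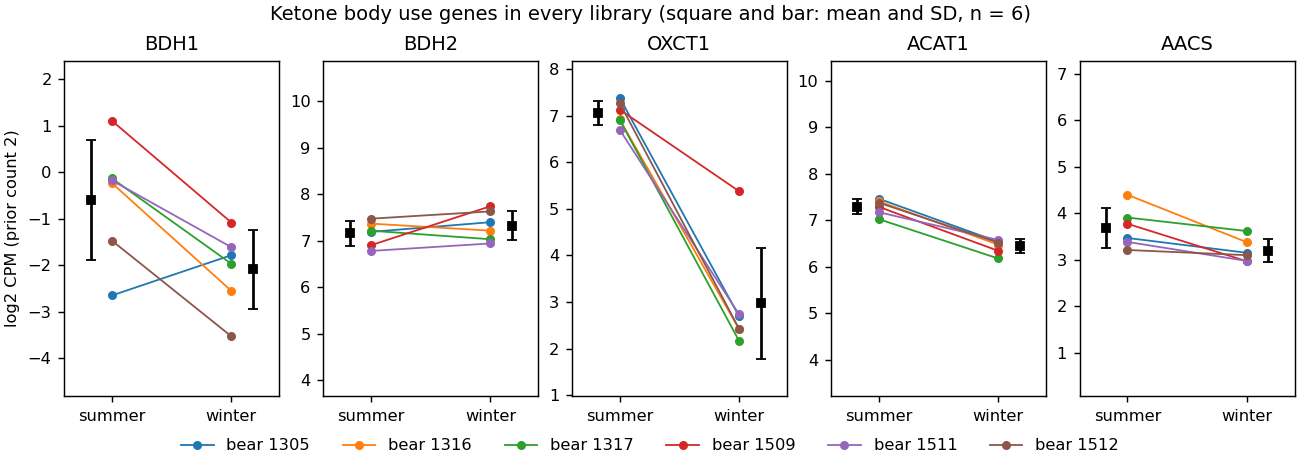
Level of each gene (log2 CPM, prior count 2) in the summer and winter library of each of 6 bears, joined by a line per bear, with the season mean and SD as squares and bars. All panels span the same number of log2 units. OXCT1 is far lower in winter in 5 bears and less so in bear 1509, ACAT1 is lower by a similar step in all 6, and BDH2 differs in direction between bears.

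The oxidation of 3-hydroxybutyrate to acetoacetate is the role of BDH1, a mitochondrial dehydrogenase. Its reads were few in every library. In summer there were 2, 16, 19, 47, 20 and 7 reads in bears 1305, 1316, 1317, 1509, 1511 and 1512, the order kept for every gene. In winter the same bears had 5, 2, 3, 7, 4 and 0. The sums were 111 reads in summer and 21 in winter, so that the summer libraries alone carried the gene past the minimum of 30 reads. On the scaled level this was 0.0729, 0.763, 0.825, 2.06, 0.798 and 0.274 CPM in summer against 0.204, 0.0840, 0.169, 0.386, 0.241 and 0 CPM in winter. The 0 reads of the winter library of bear 1512 allow a level of up to 0.0977 CPM, counting 3 reads as the limit of a count of 0, which covers counting error only. The seasons overlapped, since the summer libraries of bears 1305 and 1512 lay under the highest winter library. Winter minus summer was 0.87, −2.31, −1.83, −2.18, −1.43 and −2.05 on the log2 scale, and bear 1305 was the only one of the 6 with a higher winter value. The fitted difference was −2.004 on the log2 scale (SE 0.57, n = 6 bears).

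BDH2, known as a cytosolic 3-hydroxybutyrate dehydrogenase and also for a role in iron handling, was counted deeply, with 2044 to 6090 reads per library. Its summer levels were 146, 165, 149, 120, 110 and 178 CPM and its winter levels 169, 149, 131, 214, 123 and 198 CPM. The seasons overlapped over most of their range. Bear 1509 had the widest gap, with a winter value 0.84 higher on the log2 scale, while bears 1316 and 1317 were at −0.15 and −0.18. The fitted difference was 0.17 (SE 0.14), with 4 of 6 bears higher in winter.

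OXCT1 carries the step that commits acetoacetate to oxidation. Summer libraries held 4591, 2540, 2773, 3196, 2603 and 3948 OXCT1 reads and winter libraries 156, 125, 78, 753, 109 and 162. In level, this was 167, 121, 120, 140, 104 and 154 CPM in summer and 6.37, 5.25, 4.39, 41.6, 6.56 and 5.27 CPM in winter. Every winter library was below every summer library, a pattern that 8.21% of all genes tested showed. The winter libraries of 5 bears lay within a narrow range and that of bear 1509 stood above them.

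On the log2 CPM scale OXCT1 averaged 7.05 ± 0.26 over the summer libraries and 2.97 ± 1.20 over the winter libraries (SD, n = 6 each). Within bears, winter minus summer was −4.70, −4.51, −4.75, −1.75, −3.97 and −4.85 on the log2 scale, and the fitted difference was −4.14 (SE 0.39). Ranked by fitted difference, OXCT1 was number 21 from the lowest of 17290 genes. Without bear 1509 the difference was −4.57, or 23.7-fold, and without the block for the bear it was −3.55.

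ACAT1, the mitochondrial thiolase that yields acetyl-CoA, was the most even of the genes across animals. Summer levels were 176, 170, 130, 156, 144 and 166 CPM and winter levels 92.8, 88.9, 72.4, 81.1, 95.4 and 91.6 CPM, from 1285 to 4840 reads. The highest winter library, of bear 1511, lay well under the lowest summer library, of bear 1317. Winter minus summer was −0.93, −0.93, −0.84, −0.94, −0.60 and −0.86 on the log2 scale, with an SD of 0.13 over bears, and the fitted difference was −0.85 (SE 0.10). Bear 1509, whose OXCT1 difference was the smallest, had an ACAT1 difference of −0.94, close to those of bears 1305 and 1316, both at −0.93.

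AACS, which sends acetoacetate to lipid synthesis in the cytosol, had 129 to 439 reads per library. Summer levels were 10.97, 20.9, 14.9, 13.6, 10.3 and 9.16 CPM, and winter levels were 8.78, 10.3, 12.2, 7.73, 7.76 and 8.47 CPM. All 6 bears were lower in winter, but the seasons overlapped, since the winter library of bear 1317 exceeded the summer libraries of bears 1305, 1511 and 1512. The fitted difference was −0.50 (SE 0.14). The highest AACS value came from the summer library of bear 1316, which also had the highest summed adipocyte markers, 2245 CPM against 802 to 1142 CPM in the other summer libraries. Without bear 1316 the AACS difference was −0.38, and BDH1 and AACS were no longer past the threshold. The part of adipocytes in the AACS value was not tested. Of the adipocyte list, 2 of 8 genes were lower in winter, LPL (−1.70) and FABP4 (−0.84), where 21.2% of all genes tested were lower. The other 6, ADIPOQ, PLIN1, LEP, CIDEC, CIDEA and PLIN4, were not called. The summed winter levels were 401 to 902 CPM. LPL and FABP4 averaged 379 and 461 CPM in summer, so on average the summer sums rest largely on these 2 genes. Other genes of the list had a highest summer library far above the summer median. ADIPOQ reached 348 CPM (median 32.3), PLIN1 74.4 (5.37), CIDEC 64.2 (4.35) and CIDEA 47.9 (2.68). PLIN4 was even, at 164 to 207 CPM in summer, and LEP was at most 0.146 CPM.

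**Figure D2:**
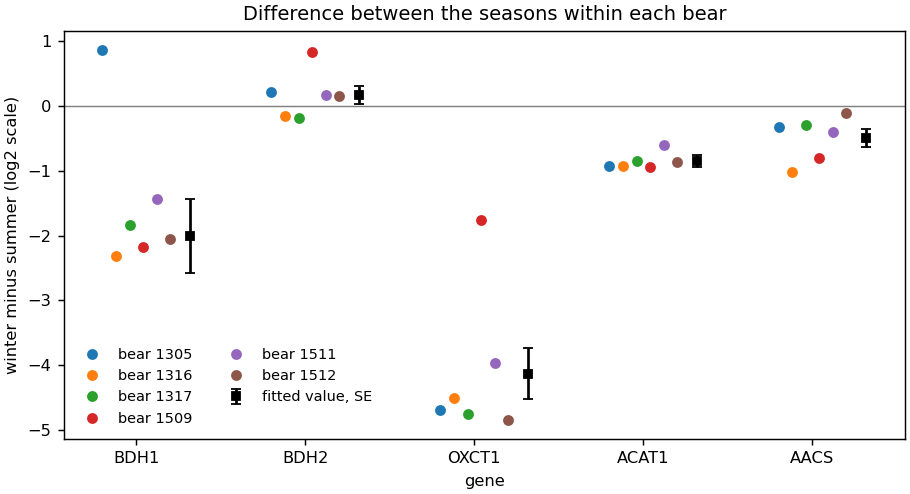
Winter minus summer difference of log2 CPM (prior count 2) within each of 6 bears, as points, and the fitted log2 fold change with its SE, as squares and bars. OXCT1 lies between −4.85 and −3.97 in 5 bears and at −1.75 in bear 1509, ACAT1 lies between −0.94 and −0.60, and BDH1 is above 0 in bear 1305.

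The place of these genes among all genes tested is shown by a plot of difference against mean CPM. The median difference of all genes was −0.01 on the log2 scale.

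**Figure D3:**
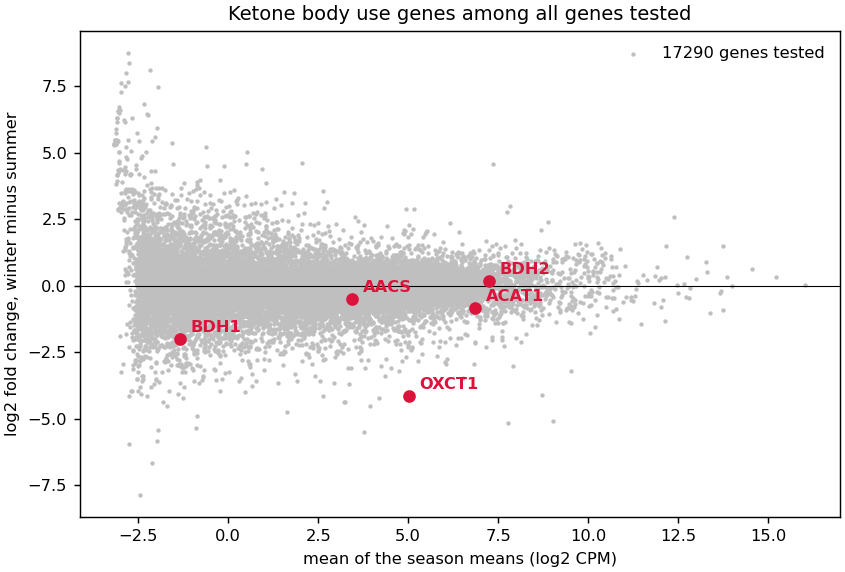
Fitted log2 fold change, winter minus summer, against the mean of the season means in log2 CPM for 17290 genes (grey) and the 5 ketone body use genes (red). OXCT1, at −4.14, lies under most of the cloud, and the other 4 lie within it. CPM is not scaled by gene length, so the horizontal axis shows how deeply a gene was counted and not its level against other genes.

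Since BDH1, OXCT1 and ACAT1 work in mitochondria, reads were also set against those of CS, citrate synthase, an enzyme of the mitochondrial matrix. CS itself was −0.29 on the log2 scale (SE 0.14, adjusted p = 0.130). Per 1000 CS reads, OXCT1 had 65.9 to 126 reads in summer (median 98.3) and 4.59 to 29.7 in winter (median 5.15), a 14.0-fold difference with 6 of 6 bears lower. On the same scale BDH1 differed by 3.20-fold with 5 of 6 bears lower (SD 1.89 on the log2 scale over bears), ACAT1 by 1.48-fold with 5 of 6, and AACS by 1.15-fold with 4 of 6. BDH2 had a median of 98.9 reads per 1000 CS reads in summer and 145 in winter. Of 11 genes listed for mitochondrial content, 5 were lower in winter and 1, TOMM20, was higher, with summed levels of 9776 to 11069 CPM in summer and 6228 to 10174 CPM in winter. The slow fibre list had 2 of 9 genes lower, 1 higher and 6 not called, with a median difference of 0.08 on the log2 scale. Its summed levels were 15515 to 32056 CPM in summer and 16960 to 27204 CPM in winter. The lower genes were its myosin MYH7, by 0.66 (adjusted p = 0.0284), and ATP2A2, by 0.63, and MYOZ2 was higher by 0.60. Over all genes tested, 21.2% were called lower and 19.6% higher. The part of mitochondrial content and slow fibres in the differences of the ketone body use genes was not tested.

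Differences between bears are a measure on which the genes were not chosen. In the same edgeR fit, the F test of the bear coefficients was past an adjusted p of 0.05 for 119 genes, 0.688% of those tested. None of the 5 genes was among them, with adjusted p values of 0.349 for OXCT1, 0.411 for AACS, 0.452 for BDH1, 0.598 for BDH2 and 0.669 for ACAT1. At an unadjusted p below 0.05 there were 2 of 5, where 11.7% of all genes tested were. DESeq2's likelihood ratio test of the bear also called 0 of 5, where it called 4.49% of all genes. These p values set the differences between bears against the spread left after season and bear, with the libraries of a bear as its replicates. A seasonal difference that varies between bears, as for OXCT1 in bear 1509, enters that spread and is not tested. A gene that was not called is therefore not shown to be alike in all bears.

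By profile over the 12 libraries, the genes most like OXCT1 were GADL1, HR and SPARC. Likeness was the root mean square difference of log2 CPM after centring each gene on its mean, over 10344 genes with a symbol and a mean of at least 1 log2 CPM. It was 0.67 for GADL1, an enzyme of amino acid decarboxylation, 0.67 for HR, a nuclear corepressor, and 0.72 for SPARC, a matrix protein. The spread of OXCT1 around its own mean was 2.19 on that scale. Because these 3 genes were selected for their likeness over the same libraries, the values that follow describe the choice and add nothing to it. GADL1 was in the winter library of bear 1509 at 20.1 CPM against 1.09 to 5.96 CPM in the other winter libraries. SPARC was at 600.4 CPM there against 135 to 335 CPM, and HR at 1.27 CPM against 0.490 to 0.781 CPM. Fibroblast markers summed to 1523 CPM in the winter library of bear 1509 and 1649 CPM in that of bear 1511, against 274 to 606 CPM in the other 4. The part of fibroblasts in the OXCT1 value of bear 1509 was not tested.

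**Figure D4:**
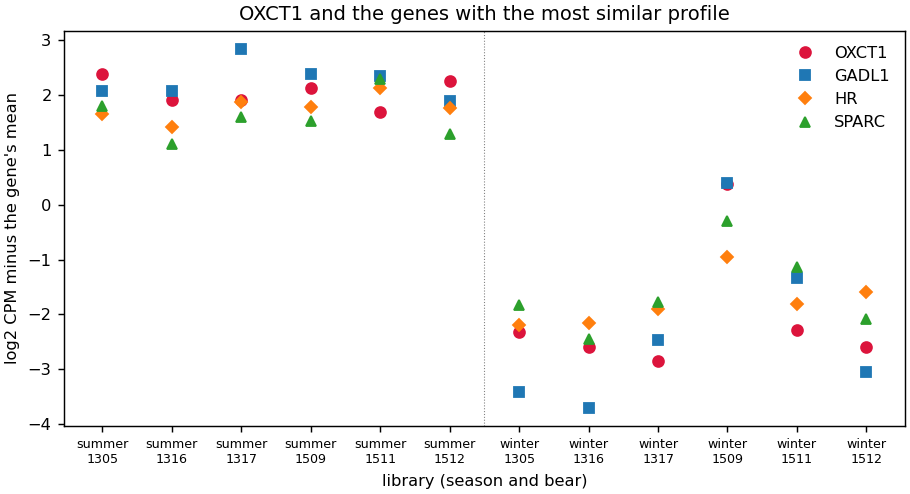
Log2 CPM minus the gene's mean over 12 libraries, for OXCT1 and the 3 genes with the most similar profile, with libraries ordered by season and bear. The 3 genes were chosen for this likeness. All 4 genes are above their mean in the 6 summer libraries, and each has its highest winter value in bear 1509.

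For the other genes the nearest profiles are given beside the spread of the gene itself. ACAT1 was most like MRPL18 (0.09), a protein of the mitochondrial ribosome, DNASE1L1 (0.14) and GRPEL1 (0.15), a cofactor of mitochondrial protein import, with a spread of 0.45 of its own. AACS was most like SCD (0.16), the stearoyl-CoA desaturase, HSD17B12 (0.19), an enzyme of fatty acid elongation, and BIN1 (0.22), with a spread of 0.41. BDH1 was nearest to FADS1 (0.63), a fatty acid desaturase, and DBP (0.63), a clock-controlled transcription factor, with a spread of 1.25. With 0 to 47 reads per library, BDH1 itself lay below the minimum of 1 log2 CPM set for the genes compared. Little is therefore to be read from its nearest profiles. BDH2 was nearest to STRADB (0.13), OGT (0.13) and SSPN (0.14), with a spread of 0.28. These values describe 12 libraries that share animals and seasons.

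The rest of the pathway was taken from lists of synthesis, thiolases, succinyl-CoA enzymes, transport and regulation. Of 26 genes listed, 25 were in the table and 20 had at least 30 reads. In winter 11 of these 20 were lower, 1 was higher and 8 were not called (the 11 include HCAR2, which had few reads in winter), where 21.2% and 19.6% of all genes were called lower and higher. The median difference of the 20 genes was −0.54, and that of all genes −0.01. The lists were drawn up with earlier results of these data known, so these counts and medians describe them and are not a test. None of the 20 differed between bears at an adjusted p below 0.05 in edgeR, 4 did at an unadjusted p below 0.05 (11.7% of all genes), and DESeq2's likelihood ratio test called 2 (4.49% of all genes), PPARGC1A (adjusted p = 0.00457, against 0.181 in edgeR) and SIRT5 (0.0165, against 0.190). Genes with fewer than 30 reads were SLC16A8, SLC5A8 and SLC5A12, which are transporters, the short-chain fatty acid receptor FFAR3 and the hormone FGF21. OXCT2, a paralog of OXCT1, was not matched.

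**Figure D5:**
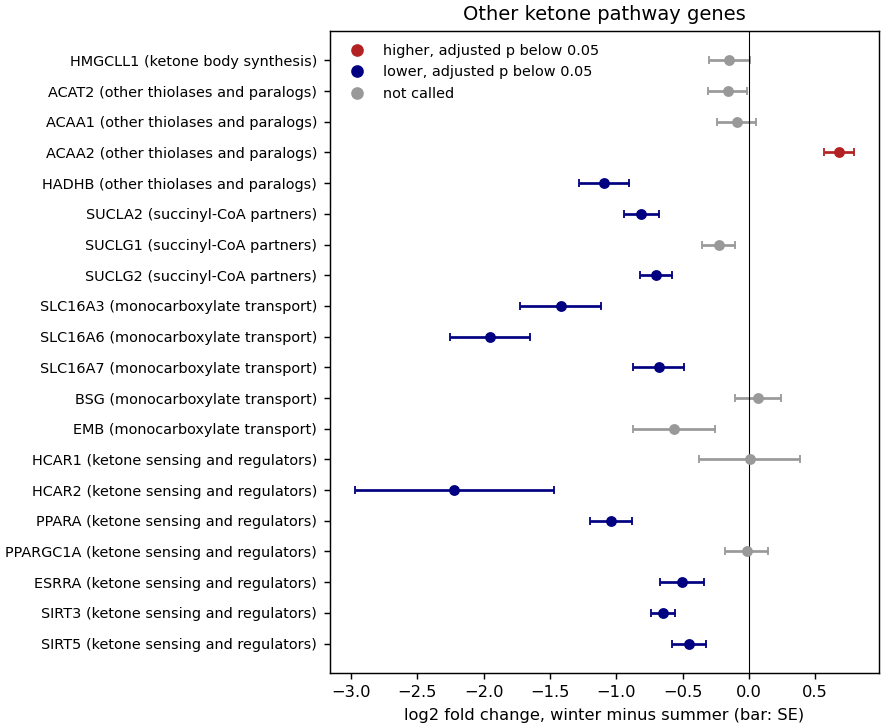
Fitted log2 fold change, winter minus summer, with its SE for the 20 tested genes of the other ketone pathway lists, blue where lower and red where higher at an adjusted p below 0.05, and grey where not called. The 11 lower genes include 3 monocarboxylate transporters and 2 subunits of succinyl-CoA synthetase, and ACAA2 is the 1 higher gene.

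Among the succinyl-CoA enzymes, which share the CoA donor of OXCT1, 2 of 3 genes fell in winter, where 21.2% of all genes tested were lower. SUCLA2, the ATP-forming subunit of succinyl-CoA synthetase, went from 1039 ± 104 to 603 ± 134 CPM (SD, n = 6), with a log2 change of −0.81 and an adjusted p of 0.000911. SUCLG2, the GTP-forming subunit, went from 130 ± 18.5 to 80.4 ± 13.5 CPM, at −0.70 with an adjusted p of 0.00109. Both were lower in 6 of 6 bears. SUCLG1, the subunit common to both forms, was at −0.23 and not called (adjusted p = 0.161).

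Of the other thiolases, the mitochondrial ACAA2 rose and HADHB fell. ACAA2, the last enzyme of medium-chain fatty acid oxidation, went from 261 ± 29.6 to 421 ± 71.9 CPM, a log2 change of 0.68 (SE 0.11, adjusted p = 0.000847). HADHB, the thiolase subunit of the trifunctional protein of long-chain fatty acid oxidation, went from 636 ± 188 to 298 ± 81.3 CPM, a log2 change of −1.10 (SE 0.19, adjusted p = 0.00117). The direction was shared by 6 of 6 bears for each. The cytosolic ACAT2 and the peroxisomal ACAA1 were at −0.16 and −0.09 and were not called.

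With SLC16A1 not analysed, 3 of 5 tested transport genes fell, where 21.2% of all genes tested were lower. SLC16A3 (MCT4), known mainly for lactate export, went from 24.1 ± 11.8 to 8.26 ± 2.20 CPM (log2 change −1.42, adjusted p = 0.00385). SLC16A6, which carries 3-hydroxybutyrate out of liver cells, was found at 7 to 67 reads per library and changed by −1.95 (adjusted p = 0.000632). SLC16A7 (MCT2), with a high affinity for monocarboxylates, went from 5.55 ± 1.90 to 3.35 ± 0.65 CPM (−0.68, adjusted p = 0.0158). All 6 bears were lower for each of these 3. The chaperones of these transporters were not called, with BSG at 0.06 (adjusted p = 0.790) and EMB at −0.57 (adjusted p = 0.167).

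Ketone body synthesis takes place mainly in liver. HMGCLL1, a cytosolic lyase, had 44 to 171 reads per library and was at −0.15 on the log2 scale, not called (adjusted p = 0.474). Of the hepatocyte markers, ALB and APOA1 were both lower in winter, where 21.2% of all genes tested were lower. Their summed levels were 51.0 to 85.2 CPM in summer and 12.4 to 30.1 CPM in winter. TTR and CPS1 had fewer than 30 reads.

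Among sensors and regulators 5 of 7 were called lower and 2 were not called, where 21.2% of all genes tested were lower. Of the 5, HCAR2 passed the minimum of 30 reads only through its summer libraries. PPARA, the nuclear receptor that drives genes of fatty acid oxidation and ketogenesis, went from 126 ± 28.8 to 61.0 ± 13.9 CPM (log2 change −1.04, adjusted p = 0.000617). SIRT3, a mitochondrial deacetylase, went from 38.1 ± 2.50 to 24.3 ± 1.70 CPM (−0.65, adjusted p = 0.000407), and both were lower in all 6 bears. ESRRA, a nuclear receptor of mitochondrial genes, was at −0.51 (adjusted p = 0.0322), a call lost without bear 1305, 1316 or 1317, at up to 0.0698. SIRT5, a mitochondrial desuccinylase, was at −0.45 (adjusted p = 0.0172), a call lost without the block for the bear (0.102) and without bear 1512 (0.0595). HCAR2, a receptor of 3-hydroxybutyrate found on adipocytes and immune cells, was at −2.22 (adjusted p = 0.0353), from 95 reads in summer and 12 in winter, so little is to be read from its call. Of the summer reads 67 were in the library of bear 1316, and without this bear the difference was −1.26 and not called (adjusted p = 0.167, the highest of its alternatives, which began at 0.0178). The call was also lost without bear 1317 or 1512, and without the block the difference was −2.89. That summer library had the highest summed adipocyte markers of its season and the lowest summed macrophage and leukocyte markers, 35.0 CPM against 42.8 to 66.2 CPM, and the part of these cells was not tested. PPARGC1A and HCAR1 were at −0.02 and 0.00 and were not called.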

How the data were processed

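Reads per gene in 12 vastus lateralis libraries of 6 bears were analysed. Per the study's methods the authors sequenced stranded single-end reads, aligned them to the brown bear assembly ASM358476v1 and counted them per gene, and the deposited values are these raw counts with no normalization. The submitters' processing notes name TopHat2 2.1.1, Bowtie2 2.2.9, SAMtools 1.9, featureCounts 1.6.2, FastQC 0.11.5 and bcl2fastq 2.20. Genes under 30 reads in all were left out, and they held 0.0190% of the reads.

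Winter was compared with summer by edgeR 4.0.16 (R 4.3.3; TMM, glmQLFit, glmQLFTest) with season and bear as terms and Benjamini-Hochberg adjustment over all 17290 genes tested, at a threshold of 0.05. The bear is a block because each animal gave a biopsy per season. After subtracting season means, libraries of a bear correlated at 0.0903 to 0.344 and those of different bears at −0.214 to 0.142. Log2 CPM used a prior count of 2. Fits were tested on simulated data. Alternatives were DESeq2 1.42.0, limma voom 3.58.1, other scalings and filters, no block, a stricter threshold and each bear left out.

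The 6 genes, the lists and the tests were chosen with earlier results of these data known. Named with values were these genes, the called genes of the pathway lists and, for each of the 5 found, the 3 genes with the nearest profile. Symbols were matched in the table or through the RefSeq gene ID of a later assembly, UrsArc2.0. Gene lengths were not used, so the level of a gene was not compared with that of another. No library was a copy of another of its season, with a chi-square per gene of at least 44.4. The lanes of the libraries were not given, some genes of the lists and of the nearest profiles are not reported here, and mouse samples and Western blots were not analysed here.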

Additional observations from a re-analysis of the deposited data

Results flagged for a closer look

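Of 34 sets of 6 libraries examined for a library far from the rest (the 5 genes and the 12 called pathway genes in each season), 2 had a gap above Dixon's 95% critical value for 6 values, where chance gives 1.7. The winter library of bear 1509 had OXCT1 at 5.38 log2 CPM from 753 reads, against 2.16 to 2.73 in the other winter libraries. The summer library of bear 1316 had HCAR2 at 1.71 log2 CPM from 67 reads, against −2.28 to −1.20.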

How the results depend on the processing

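Over the alternatives, 159 of 168 values stayed within the limits set for them (1 SD of the differences within bears, or 1.5 times a count), 9 moved further and 0 reversed. Only the fitted difference of a gene past the threshold could be scored as reversed, so neither a count nor BDH2 could be. For BDH2 the limit of 0.37 was wider than its difference of 0.17. The fitted difference of OXCT1 ran from −4.57 to −3.55, BDH1 from −2.54 to −1.79, BDH2 from 0.05 to 0.24, ACAT1 from −0.93 to −0.82 and AACS from −0.58 to −0.38. Without the replicate block for the bear, OXCT1 was at −3.55 and ACAT1 at −0.85, 4 of the 5 genes were past the threshold and 10 pathway genes were called lower, with SIRT5 lost. At an adjusted p below 0.01 and past a fold of 1.3 up or 0.77 down, 7 pathway genes and 2 of the 5 genes were lower. The share of all genes past this stricter limit was not counted, so nothing is read from these 2 counts. Leaving out a bear gave 2 to 4 of the 5 genes lower, the 2 without bear 1316, and 9 to 11 pathway genes lower. Genes that differed between bears, 119 in all, numbered 776 in DESeq2's likelihood ratio test, 192 with library totals, 458 with no filter on low counts, 67 with filterByExpr and 65 to 168 with a bear left out (77 without bear 1305, 65 without bear 1511). Under filterByExpr BDH1 and HCAR2 were not tested and have no value. The causes were not tested. BDH1 and HCAR2 had few reads, each with a library at 0 reads. For BDH1 that was the winter library of bear 1512, the deepest of the 12 at 32140160 counted reads.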
